A study of Drosophila melanogaster with 6 samples.

Results

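Transcripts of 9 genes for the actomyosin cortex and the adherens junctions were followed in late-blastoderm Drosophila embryos, in 9 of the 9073 genes of the deposited table. The genes were chosen by CG number for their known roles, not by their values, but with earlier results of these data known. They were zip (CG15792), sqh (CG3595), Rok (CG9774), Rho1 (CG8416), dia (CG1768), baz (CG5055), shg (CG3722), arm (CG11579) and alpha-Cat (CG17947). All 9 were found in the table and had reads in all 6 libraries. The study compared 3 libraries of embryos that received a mixture of double-stranded RNAs against even-skipped and runt (eve + runt dsRNA, 1 µg/µl of each; here the dsRNA libraries) with 3 libraries of embryos that received water. Both groups were wild-type Oregon R embryos, collected over 0 to 1 h at 25 °C, dechorionated, injected before cells had formed, kept at 18 °C and picked by hand just before the ventral furrow appears, with about 50 whole embryos pooled for each library. Each library is thus an average over all cell types of the embryo, and in such RNA a change in the share of a cell type and a change in RNA per cell cannot be told apart. The labels do not say whether the replicates were injected on separate days, so the spread between them may be technical.

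Non-muscle myosin II is a motor of paired heavy chains, each bound by a regulatory and an essential light chain, that pulls on actin filaments. The small GTPase Rho1 switches it on through the kinase Rok, which phosphorylates the regulatory light chain, and drives new filaments through the formin Diaphanous. Adherens junctions carry this tension from cell to cell: E-cadherin spans the membrane, beta-catenin binds its tail, and alpha-catenin links beta-catenin to actin. In the fly embryo the same parts first draw in the membranes that divide the blastoderm into cells, and then shorten junctions selectively during germband extension, a movement that requires the striped expression of Eve and Runt. The series asks which genes these 2 transcription factors control, and the question for these 9 genes is whether the transcript level of the machinery itself differs.

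The libraries held 23234425 to 49364110 gene reads. Levels are normalised counts, that is, the authors' read counts divided by a factor for each library. Of the targeted genes, run stood at 1975, 1922 and 1733 in dsRNA replicates 1, 2 and 3, against 3131, 2220.0 and 3557 in water replicates 1, 2 and 3, while eve stood at 2922, 2727 and 2325 against 2827, 1699 and 3075, so the groups separated for run and overlapped for eve (log2 −0.64 ± 0.18 and 0.11 ± 0.23, SE; limma adjusted p = 0.999 each). An annotated antisense RNA (asRNA:CR43948) overlaps an exon of eve. Its reads cannot be told apart from those of eve unless the counting used strand, which is not given in the sources used here. Reads on the overlap may instead have been set aside as ambiguous, and so be missing from the count. All 8 listed early zygotic genes of cellularisation were measured, from 2553 normalised counts for the lowest library of CG14427 to 197410.0 for the highest of slam. Their summed level was 238358 to 375710.3 in dsRNA and 215895 to 283529 in water libraries, with a median log2 difference of 0.27, and 7 of the 8 were lowest in water replicate 2. Water replicate 2 stood apart: it scored 60.6 on a first principal component that held 54.7% of the variance, and the other libraries scored −27.7 to 5.61. All 16 measured maternal RNAs that embryos clear were higher in it than in both other water libraries, and their summed level was 83273 to 109686 in dsRNA libraries and 94947 to 143208 in water libraries. Of 21 later-embryo genes (segment-polarity, homeotic and differentiation genes), 18 were lower in it than in both other water libraries, with sums of 9786 to 12715 in dsRNA and 4978 to 14669.8 in water libraries. None of these maternal or later-embryo genes was at 0 in any library. Sums over lists of marker genes were 16257 to 21814 in dsRNA and 9325 to 20902 in water libraries for 6 mesoderm genes, 15075 to 20038 and 7583 to 16625 for 7 neuroectoderm genes, and 12082 to 13819 and 12491 to 17154 for 7 pole-cell genes. These lists are not separate from those above. The pole-cell genes osk, gcl and pgc are also among the maternal RNAs, and tin, rho and sim are also among the later-embryo genes. The cellularisation gene slam is also among the junction and polarity genes given below. It held 197410.0 of the summed 375710.3 of the cellularisation genes in dsRNA replicate 1. Whether these differences between libraries have a part in the results below was not tested. Without water replicate 2 the log2 difference was −0.83 ± 0.097 for run (SE, limma adjusted p = 0.0521). For eve it changed sign to −0.16 ± 0.11 (SE, limma adjusted p = 0.891).

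The mean level of each of the 9 genes in the dsRNA libraries was between 0.927-fold (zip) and 1.12-fold (dia) of its mean in the water libraries. None of the 9 passed the limma test across all genes (Benjamini-Hochberg adjusted p = 0.999 for each), where 0.011% of all genes passed (1 of 9073), and none had an unadjusted p under 0.05, against 2.27% of all genes. Limma-voom on the recovered reads also called none of the 9, with 1 of them, dia, under an unadjusted p of 0.05. None of the 9 was called without water replicate 2, where 0.0441% of all genes passed, or among genes with a mean of at least 5 CPM, where 0.0172% did. The median log2 difference, dsRNA minus water, was 0.0043 over the 9 genes and −0.0015 over all 9073. The 9 differences ran from −0.11 for zip to 0.16 for dia, and no 95% confidence interval reached beyond 0.779-fold or 1.31-fold. Only for dia did the 2 groups not overlap, 1 of 9 genes, where 2.99% of all genes had every dsRNA library above every water library and 3.36% had every one below.

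**Figure D1:**
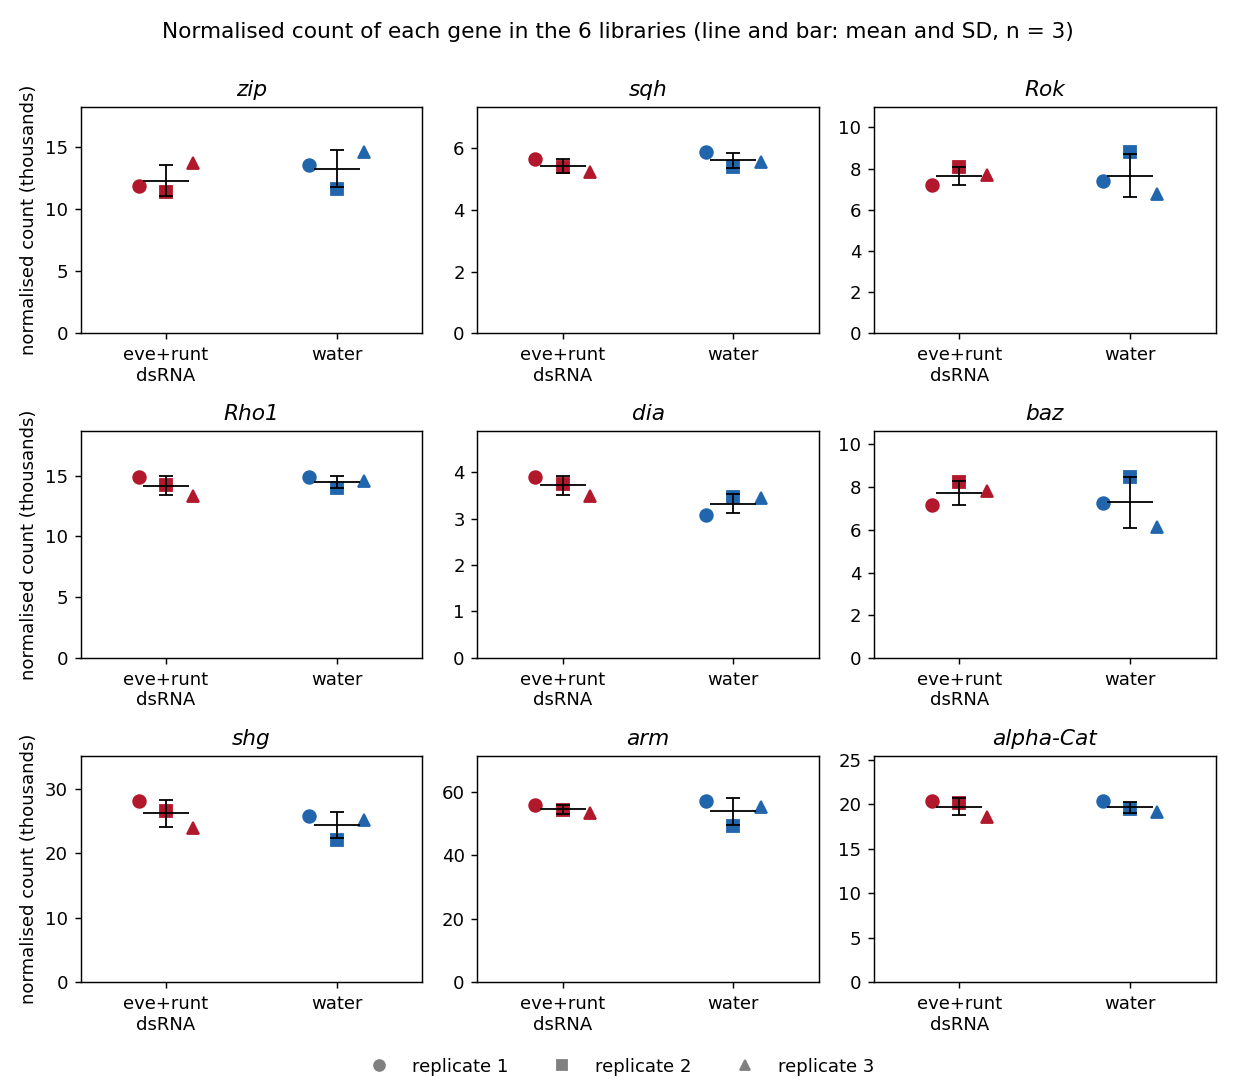
Normalised count (in units of 1000, axis from 0) of each of the 9 genes in the 3 eve + runt dsRNA libraries (red) and the 3 water libraries (blue); symbols give the replicate number, and the line and bar the mean and SD. The groups overlap in every panel except that of dia, whose lowest dsRNA library, at 3497, lies just above its highest water library, at 3457.

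The myosin II motor was represented by its heavy chain, zip, and its regulatory light chain, sqh. Zipper (BDGP6 chromosome 2R, 24990570 to 25011965, minus strand) stood at 11843, 11375 and 13712 in dsRNA replicates 1, 2 and 3, against 13535, 11669 and 14613 in water replicates 1, 2 and 3. The libraries of replicate 3 were highest and those of replicate 2 lowest in both groups, which overlapped. The means were 12309.8 ± 1236 in dsRNA and 13272 ± 1490 in water libraries (SD, n = 3 each), a log2 difference of −0.11 ± 0.11 (SE; 95% interval −0.36 to 0.15). With the replicate number as a block the difference stayed at −0.11 with an SE of 0.048, and the limma adjusted p was 0.898. Without water replicate 2 it was −0.20 ± 0.089 (SE; limma adjusted p = 0.891).

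Spaghetti squash (sqh; BDGP6 chromosome X, 6223061 to 6225140, minus strand), the light chain that Rok phosphorylates, varied less. It stood at 5646, 5394 and 5223 in dsRNA libraries, against 5870.2, 5395 and 5558 in water libraries. Its means of 5421 ± 213 in dsRNA and 5608 ± 242 in water (SD, n = 3 each) differed by −0.049 ± 0.062 (log2, SE; 95% interval −0.20 to 0.10). Because the 2 chains were read in the same libraries, their ratio does not depend on the scaling between libraries. The zip count was 2.10, 2.11 and 2.63 times the sqh count in dsRNA libraries 1, 2 and 3, against 2.31, 2.16 and 2.63 times in water libraries 1, 2 and 3. Both replicates numbered 3 gave the high ratios, and the groups overlapped.

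The switches above the motor are the GTPase Rho1, its kinase Rok and the formin dia. Rho1 (BDGP6 chromosome 2R, 16102687 to 16107229, plus strand) was among the steadiest of the 9: it stood at 14911, 14239 and 13335 in dsRNA libraries, against 14895, 13951 and 14585 in water libraries. Its highest and lowest libraries, dsRNA replicates 1 and 3, differed 1.12-fold and belonged to the same group. The means were 14162 ± 791 in dsRNA and 14477 ± 481 in water (SD, n = 3 each; log2 −0.033 ± 0.058, SE; 95% interval −0.17 to 0.11).

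Rok (BDGP6 chromosome X, 16624012 to 16637414, minus strand), the kinase that Rho1 activates, stood at 7177, 8079 and 7668 in dsRNA libraries, against 7390.2, 8796 and 6778 in water libraries. Its highest and its lowest library were both water libraries, replicates 2 and 3, and the dsRNA libraries lay between them. The means were 7641 ± 451 in dsRNA and 7655 ± 1035 in water (SD, n = 3 each; log2 0.0043 ± 0.10, SE; 95% interval −0.25 to 0.26). Without water replicate 2 the log2 difference of Rok was 0.11 ± 0.077 (SE). An annotated antisense RNA (asRNA:CR45001) overlaps an exon of Rok, and its reads cannot be told apart from those of Rok unless the counting used strand, which is not given in the sources used here. Reads on such an overlap may instead have been set aside as ambiguous, and so be missing from the count.

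Diaphanous (dia; BDGP6 chromosome 2L, 20758144 to 20768053, plus strand), which nucleates and lengthens unbranched actin filaments, stood at 3905, 3740.2 and 3497 in dsRNA libraries, against 3079, 3457 and 3435 in water libraries. The groups did not overlap, but the gap between the nearest libraries was small beside the spread within either group. The means were 3714 ± 206 in dsRNA and 3323 ± 212 in water (SD, n = 3 each), 1.12-fold, with a log2 difference of 0.16 ± 0.078 (SE; 95% interval −0.025 to 0.35; limma unadjusted p = 0.0799, adjusted p = 0.999). The difference of dia stayed positive in all 13 alternative analyses, between 0.11 without water replicate 1 and 0.20 without dsRNA replicate 3, and its lowest adjusted p among them was 0.735. As the groups did not overlap, leaving out a library or changing the pseudocount could not have changed this sign. The filter and the block could not change it either, so only the other scalings and limma-voom could have. With TMM or upper-quartile scaling, limma-voom, or without dsRNA replicate 3, its unadjusted p was 0.0466, 0.0469, 0.0378 and 0.0485. Within a library, the dia count was 0.262, 0.263 and 0.262 of the Rho1 count in dsRNA libraries 1, 2 and 3, against 0.207, 0.248 and 0.236 in water libraries 1, 2 and 3. Relative to Rok the groups overlapped, at 0.544, 0.463 and 0.456 in dsRNA and 0.417, 0.393 and 0.507 in water libraries.

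**Figure D2:**
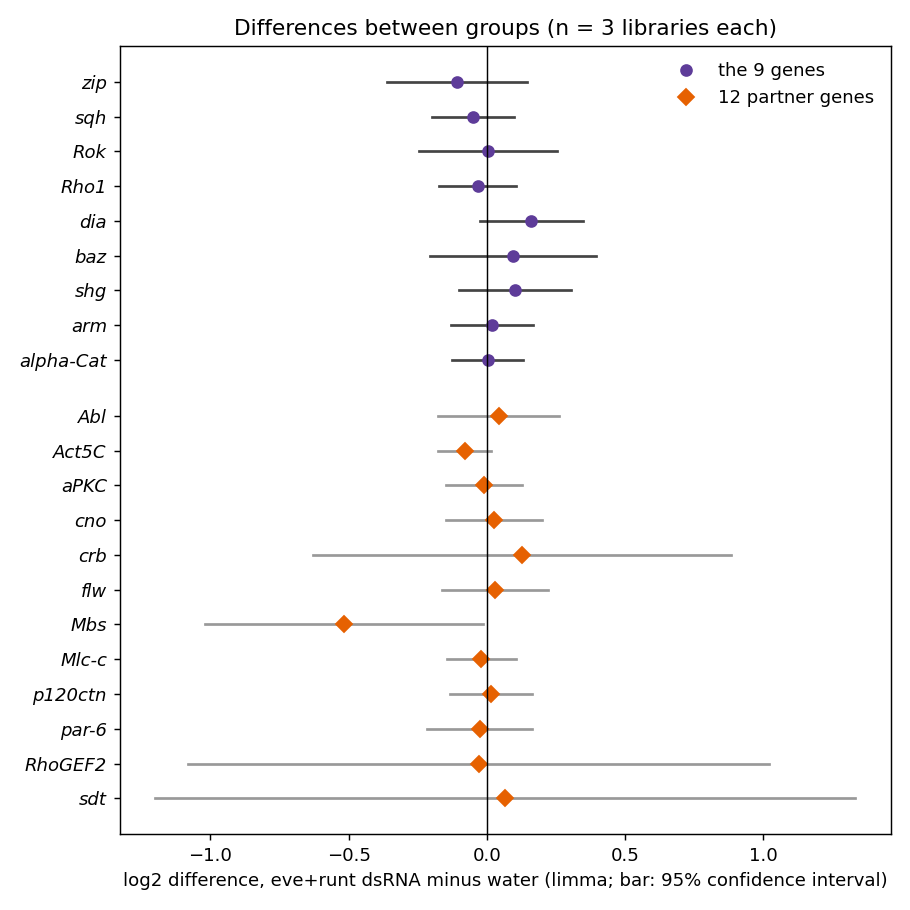
Log2 difference between eve + runt dsRNA and water libraries from limma, with its 95% confidence interval (n = 3 libraries each), for the 9 genes (circles) and 12 partner genes (diamonds). All 9 intervals of the circles include 0, with dia furthest to the right at 0.16 and zip furthest to the left at −0.11; among the partners Mbs, crb, RhoGEF2 and sdt have the wide intervals.

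The junction itself is built from shg, arm and alpha-Cat. Shotgun (shg; BDGP6 chromosome 2R, 21049654 to 21057197, minus strand), the fly E-cadherin, stood at 28119, 26559 and 23896 in dsRNA libraries, against 25859, 22120.3 and 25227 in water libraries. The library dsRNA replicate 1 was the highest and water replicate 2 the lowest, and the groups overlapped. The means were 26191 ± 2135 in dsRNA and 24402 ± 2001 in water (SD, n = 3 each; log2 0.10 ± 0.084, SE; 95% interval −0.099 to 0.30). Without water replicate 2 the log2 difference was 0.033 ± 0.073 (SE).

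Armadillo (arm; BDGP6 chromosome X, 1891401 to 1900646, minus strand), the fly beta-catenin, which also carries Wingless signals, had the highest counts of the 9. It stood at 55961, 54125 and 53142 in dsRNA libraries, against 57051, 49082 and 55280.2 in water libraries. Water replicate 2 was again the lowest library and water replicate 1 the highest, and the dsRNA libraries lay between them. The means were 54409 ± 1431 in dsRNA and 53804 ± 4184 in water (SD, n = 3 each; log2 0.019 ± 0.062, SE; 95% interval −0.13 to 0.17). Without water replicate 2 the value was −0.046 ± 0.045 (log2, SE). An exon of mRpL16 overlaps arm on the other strand, so reads of that overlap carry the same limit as for Rok.

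Alpha-Cat (BDGP6 chromosome 3L, 23318646 to 23338100, minus strand), which ties the cadherin and Armadillo complex to actin, was the steadiest of the 9. It stood at 20380.4, 20165 and 18623 in dsRNA libraries, against 20358, 19532 and 19112 in water libraries, so its highest library was 1.09-fold above its lowest. An annotated transposable element (INE-1) overlaps one of its exons on the same strand. The means were 19723 ± 958 in dsRNA and 19667 ± 634 in water (SD, n = 3 each; log2 0.0034 ± 0.054, SE; 95% interval −0.12 to 0.13). Ratios between the 3 transcripts of the complex were also taken within each library. The shg count was 0.502, 0.491 and 0.450 of the arm count in dsRNA libraries 1, 2 and 3, against 0.453, 0.451 and 0.456 in water libraries 1, 2 and 3. The alpha-Cat count was 0.364, 0.373 and 0.350 of the arm count in dsRNA libraries, against 0.357, 0.398 and 0.346 in water libraries. The shg count was 1.38, 1.32 and 1.28 times the alpha-Cat count in dsRNA libraries, against 1.27, 1.13 and 1.32 times in water libraries. The groups overlapped for all 3 ratios, whose highest libraries were 1.12-fold (shg to arm), 1.15-fold (alpha-Cat to arm) and 1.22-fold (shg to alpha-Cat) above their lowest.

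Bazooka (baz; BDGP6 chromosome X, 17160006 to 17200728, plus strand), the fly Par-3, is a scaffold that places junctions at the apical edge and, in germband extension, lies on the cell borders that are poor in myosin. It was the most variable of the 9, at 7145, 8254 and 7812 in dsRNA libraries, against 7265, 8497 and 6122 in water libraries. As for Rok, water replicate 2 was the highest library and water replicate 3 the lowest. The means were 7737 ± 559 in dsRNA and 7295 ± 1187 in water (SD, n = 3 each; log2 0.095 ± 0.13, SE; 95% interval −0.20 to 0.39). Without water replicate 2 the log2 difference of baz was 0.21 ± 0.096 (SE; limma adjusted p = 0.891), and without water replicate 3 it was −0.025 ± 0.10. Within a library, the baz count was 0.995, 1.02 and 1.02 times the Rok count in dsRNA libraries 1, 2 and 3, against 0.983, 0.966 and 0.903 times in water libraries 1, 2 and 3. The groups did not overlap for this ratio, as for dia to Rho1, and they overlapped for the other 8 of the 10 ratios computed. The share of all gene pairs without overlap was not computed, so this count is a description and not a test. An exon of TTLL1A overlaps baz on the other strand, with the same limit as above.

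Some of the 9 genes resembled each other in how they varied over the 6 libraries. Likeness was measured as the root mean square difference between 2 genes' log2 deviations from their own mean of the 6 libraries. The nearest pair was sqh and Rho1, with 0.023, and alpha-Cat followed Rho1 with 0.036. Rok and baz were each other's nearest, with 0.060, and shg was nearest to arm, with 0.064. The farthest pair was zip and baz, with 0.27. In water replicate 2 the log2 deviation was 0.21 for Rok and 0.19 for baz, but −0.19 for shg and −0.14 for arm. In the same library the median deviation was 0.44 for the cleared maternal RNAs and −1.27 for the later-embryo genes. All 6 libraries share 1 scaling each, and the points are 6 libraries only, so these likenesses are a description.

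**Figure D3:**
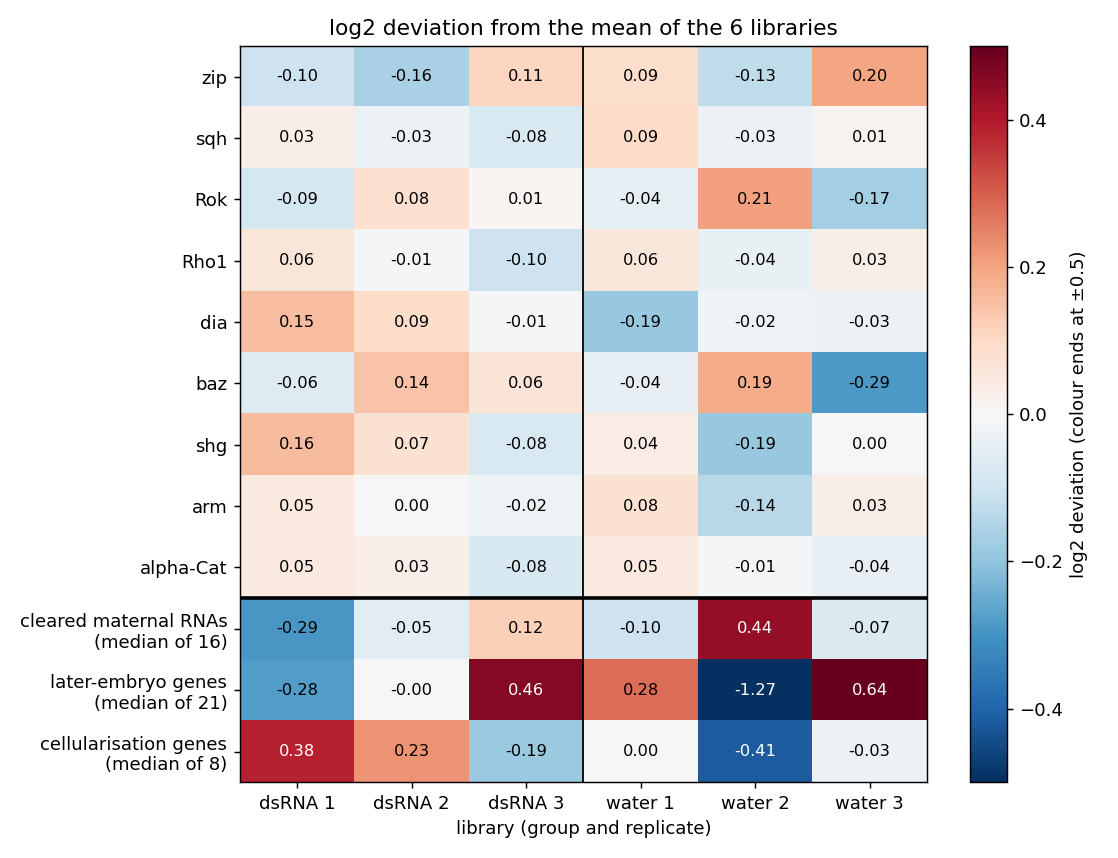
Log2 deviation of each of the 9 genes from its mean of the 6 libraries, and below the line the median deviation of the cleared maternal RNAs, the later-embryo genes and the cellularisation genes; columns are the 3 eve + runt dsRNA and the 3 water libraries, and the colour ends at ±0.5. Water replicate 2 is high for Rok and baz and low for shg and arm, while the deviations of sqh, Rho1 and alpha-Cat stay between −0.10 and 0.091.

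The 3 genes of the whole table nearest to baz, the member with the largest spread, were sra (CG6072), a6 (CG3771) and ifc (CG9078), among 6725 other genes with a mean of at least 50 normalised counts. Their root mean square log2 differences from baz were 0.025, 0.025 and 0.030. All 3 were highest in water replicate 2 and lowest in water replicate 3, as baz was: sra stood at 5118 and 3553, a6 at 2463 and 1797, and ifc at 7228 and 5349 in these 2 libraries. This follows from how the 3 were chosen, by likeness to baz over these same libraries, and is no separate result.

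The spread of the 9 genes over the 6 libraries was small on the scale of all genes, and mixed beside genes at least as abundant as dia. The SD of log2(normalised count + 1) over the 6 libraries ran from 0.054 for alpha-Cat to 0.17 for baz, with a median of 0.12, against a median of 0.24 over all 9073 genes. Among the 2019 genes at least as abundant as dia, the least abundant of the 9, the median SD was 0.083. In that abundant set 81.0% of genes had a larger SD than alpha-Cat, 73.7% a larger one than sqh and 69.4% a larger one than Rho1. The shares were 53.8% for arm, 30.8% for dia, 29.3% for shg, 26.1% for Rok, 22.8% for zip and 18.8% for baz. Within the dsRNA libraries the coefficient of variation was highest for zip, with 10.04%, and shg, with 8.15%, and baz and Rok had 7.22% and 5.91%. Within the water libraries it was highest for baz, with 16.3%, and Rok, with 13.5%, whose highest and lowest water libraries were replicates 2 and 3. The 9 genes had 2504 to 82095 reads per library, and counting error alone gives a coefficient of variation of at most 1.998%, for dia in its shallowest library. The coefficient of variation within either group was larger than that of counting for all 9.

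**Figure D4:**
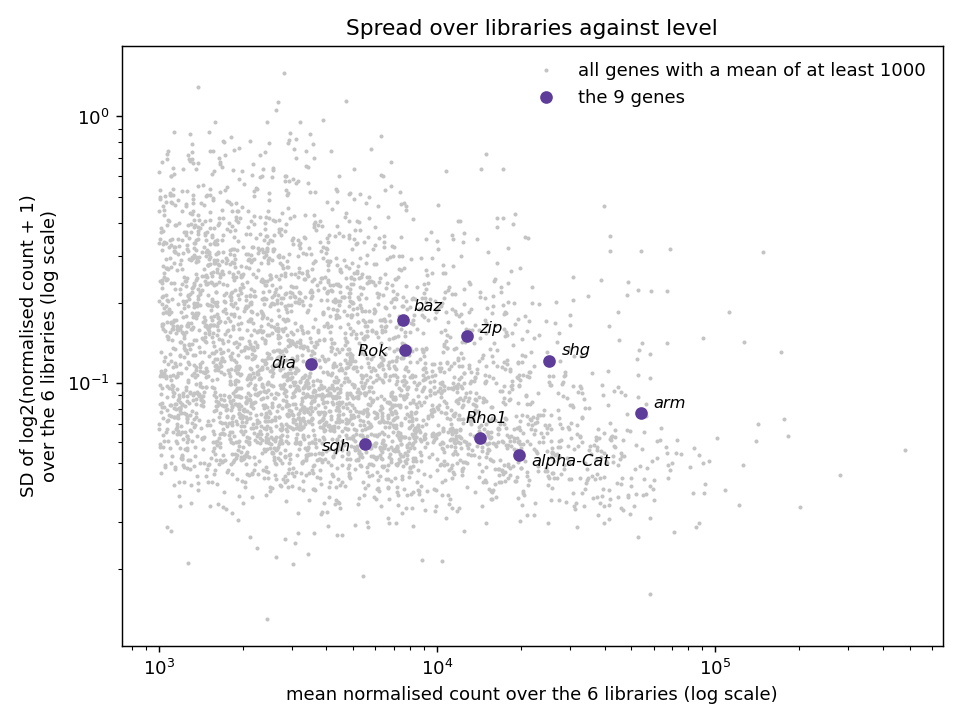
SD of log2(normalised count + 1) over the 6 libraries against mean normalised count, both on log scales, for the 3794 genes with a mean of at least 1000 (grey) and the 9 genes (purple). The 9 genes lie inside the cloud, with alpha-Cat, sqh and Rho1 in its lower part and baz and zip above most genes of their level.

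Per length, arm was the most abundant of the 9 transcripts and baz and dia the least. Normalised counts per kilobase of the longest annotated transcript (BDGP6) were 16897 in dsRNA and 16709 in water libraries for arm, as means of 3, followed by Rho1 with 6983 and 7138, alpha-Cat with 5656 and 5640.2, and sqh with 3864 and 3997. Next came shg with 4092 and 3813, zip with 1811 and 1953, Rok with 1063 and 1065, baz with 741 and 699, and dia with 706 and 632. The ranges of neighbours in this order did not overlap except for sqh and shg, which changed places between libraries (sqh higher in 3 of 6), and for baz and dia (baz higher in 4 of 6). By this measure the heavy-chain gene zip stood well below the light-chain gene sqh. Using all exons of a gene in place of its longest transcript put shg above sqh and kept every other place. The length of the transcripts made in these embryos is not known from the counts, and the annotated transcripts of dia run from 1775 to 5260 bases, so that its place depends on which are made: by the shortest transcripts dia stood above Rok and baz.

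**Figure D5:**
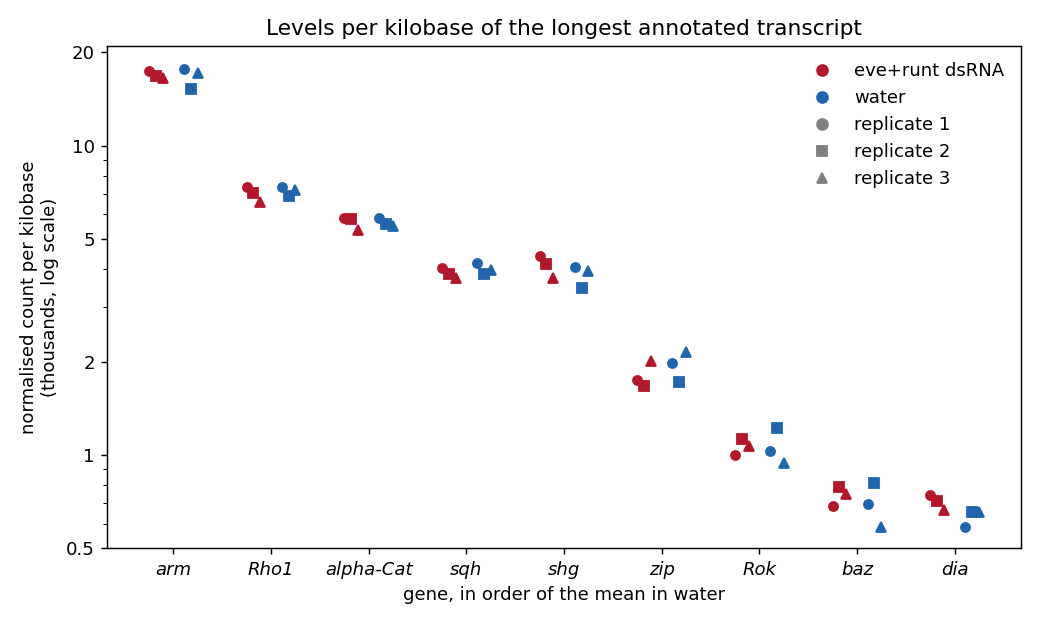
Normalised counts per kilobase of the longest annotated transcript (in units of 1000, log scale) in each of the 3 eve + runt dsRNA (red) and 3 water (blue) libraries, with genes in order of their mean in water. Arm stands alone at the top, sqh and shg share a level, and baz and dia share the lowest.

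No other gene of the same machinery passed the test either. Of 58 further genes, 35 for actin, myosin and their regulators and 23 for junctions and epithelial polarity, 0 passed limma over all genes in either direction, and limma-voom also called 0. The median log2 difference was −0.0015 for the 35 and −0.011 for the 23, beside −0.0015 over all genes. Unadjusted p-values under 0.05 were given by 2 of the 58, Mbs and ssh, beside 2.27% of all genes. The groups did not overlap for 2 of the 58: form3, a formin with at most 7 reads in a library, was above, and the polarity gene dlg1, at 10871, 10941 and 10714 in dsRNA libraries against 12013, 11007 and 11453 in water libraries, was below. Over all genes the shares were 2.99% above and 3.36% below. An exon of msl-3 overlaps form3 on the opposite strand, with the same limit as for Rok.

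Most of the direct partners of the 9 genes varied as little as the members themselves. The essential light chain Mlc-c had 7190.0 ± 242 normalised counts in dsRNA and 7289 ± 96.1 in water libraries (SD, n = 3 each; log2 −0.020 ± 0.053, SE). Actin Act5C, at 178256 ± 3893 and 188425 ± 8512, differed by −0.079 ± 0.040 (log2, SE; limma unadjusted p = 0.0910) and was lower in dsRNA in each of the 3 pairs of equal replicate number. The groups overlapped for Act5C. With the replicate number as a block its SE was 0.025 and its unadjusted p 0.0267 (limma adjusted p = 0.898). With TMM scaling, limma-voom and upper-quartile scaling its log2 difference was smaller, at −0.059, −0.060 and −0.044 (limma unadjusted p = 0.212, 0.196 and 0.525). The junction partners p120ctn, a catenin that binds the tail of E-cadherin, and cno, which links junctions to actin, were at 0.015 ± 0.062 and 0.027 ± 0.073 (log2, SE). The Par partners of Bazooka, par-6 and aPKC, were at −0.026 ± 0.080 and −0.011 ± 0.058, the myosin phosphatase catalytic subunit flw at 0.028 ± 0.080 and the kinase Abl at 0.043 ± 0.091 (log2, SE). Exons of Abl, cno, aPKC and RhoGEF2 are overlapped by other annotated features on the opposite strand, with the same limit as for Rok.

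The other partners, Mbs, RhoGEF2, crb and sdt, varied more, with their highest (Mbs) or lowest value in water replicate 2. Their SDs of log2(normalised count + 1) over the libraries were 0.40 to 0.74. Of the partners above, cno, flw, par-6 and aPKC were also highest in water replicate 2, but with SDs of only 0.051 to 0.092. The myosin phosphatase targeting subunit Mbs stood at 1229, 1369 and 1811 in dsRNA libraries, against 1650.1, 2634 and 2049 in water libraries. Its log2 difference was −0.52 ± 0.21 (SE; limma unadjusted p = 0.0460, adjusted p = 0.999), and water replicate 2 was its highest library. Without that library the difference was −0.34 ± 0.18 (SE; limma adjusted p = 0.891). RhoGEF2, a guanine nucleotide exchange factor that activates Rho1, stood at 1024, 784 and 1417 in dsRNA libraries, against 1213, 556 and 1795 in water libraries (log2 −0.030 ± 0.44, SE). Without water replicate 2 its log2 difference was −0.50 ± 0.26 (SE; limma adjusted p = 0.891). The apical polarity genes crb and sdt, whose products form 1 complex, were also lowest in water replicate 2, crb at 4239 against 8093 and 10518 in water replicates 1 and 3, and sdt at 1250 against 4007 and 5434. Their log2 differences were 0.13 ± 0.32 and 0.066 ± 0.53 (SE) over all libraries, and −0.25 ± 0.14 and −0.57 ± 0.21 (SE; limma adjusted p = 0.891 each) without water replicate 2. The cleared maternal RNAs and the later-embryo genes moved in that library too, as given above, and their part in these values was not tested.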

How the data were processed

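Poly(A) RNA of whole embryos was sequenced as 6 libraries. For each gene and library the authors deposited a normalised signal. TopHat2 (2.0.9), HTSeq, Bowtie2 and DESeq are listed, with dm3 as the build, per the submitters' processing notes, which give no order or settings; whether counting used strand is not given in the sources used here. In each library every deposited value minus 1 was a whole multiple of 1 step (100% of values within 0.01 read), so that each is a read count divided by a library factor with 1 added by the authors; reads were recovered by dividing out the step. The log2 of each deposited value, that is log2(normalised count + 1), went into limma (version 3.58.1, trend and robust options, under R 4.3.3) and p-values were adjusted over all 9073 genes with a threshold of 0.05 and no filter. The same code was tested on simulated data. Rows that name no gene held 12.4% to 14.8% (several alignments), 0.72% to 0.75% (ambiguous) and 4.32% to 4.91% (outside genes) of all reads and stayed out; reads with several alignments were counted to no gene. There were 0 columns of other samples.

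Groups and replicate numbers came from the sample titles. Libraries of 1 group differed by 15.8 to 80.5 in chi-square per degree of freedom, so none was a copy. Deviations from the group means, across genes, correlated at 0.24, 0.37 and 0.22 between libraries of the same number, and at −0.38 to 0.11 otherwise. A pairing by number comes from these data and not from the labels. The main fit had no block, and the replicate number was fitted as a block only as an alternative. A permutation of 3 against 3 libraries cannot give p under 0.1 and was not used. Names came from a RefSeq table of Release 6 plus ISO1 MT, and exon lengths and positions from the BDGP6 annotation; dm3 coordinates were not converted. No sequences are shown. The members and the gene lists were chosen with earlier results of these data known. Named genes were all 9 members, eve, run, 12 fixed partners and any listed gene past the threshold; ssh, form3, dlg1 and the lists' extremes were named after their values were seen. The gene nos was not analysed here. Alternatives were other pseudocounts (0.5 and 5), a minimum mean of 5 CPM, TMM and upper-quartile scaling, limma-voom, the replicate number as a block and leaving out each library.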

Additional observations from a re-analysis of the deposited data

How the results depend on the processing

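Under all 13 alternatives 0 of the 9 genes and 0 of the 58 further genes passed the limma test. With the minimum mean of 5 CPM, only those of the 58 that met it were tested, and form3 did not. Over all genes 1 passed, 0 passed with the replicate number as a block, and 0 to 4 passed on leaving out single libraries, the 4 without water replicate 2. At an unadjusted p under 0.05 there were 206 genes, and 348 with the block. The block changed no call on the 9 genes or their partners. The median log2 difference of the 9 genes lay between −0.025 and 0.039, and the median of their SDs over the libraries between 0.082 and 0.13. Differences close to 0 changed sign with the scaling. With upper-quartile scaling Rho1 was at 0.0023, RhoGEF2 at 0.0051, par-6 at 0.0090, Mlc-c at 0.015 and aPKC at 0.024. With TMM scaling Mlc-c was at 3.07e-05 and aPKC at 0.0089, and with limma-voom they were at 0.0030 and 0.011. On leaving out single libraries the log2 difference ran from −0.079 to 0.109 for Rok, −0.071 to 0.0099 for Rho1, −0.025 to 0.212 for baz, −0.046 to 0.063 for arm and −0.021 to 0.044 for alpha-Cat. Among partners it ran from −0.038 to 0.115 for Abl, −0.045 to 0.0039 for Mlc-c, −0.499 to 0.346 for RhoGEF2, −0.051 to 0.011 for aPKC, −0.033 to 0.088 for cno, −0.247 to 0.408 for crb, −0.034 to 0.079 for flw, −0.023 to 0.071 for p120ctn, −0.084 to 0.048 for par-6 and −0.568 to 0.492 for sdt, and for eve from −0.156 to 0.272. The cause of these changes of sign was not tested. Count models (edgeR and DESeq2) were planned and were not run; limma-voom on the recovered reads stood in their place. The intervals given are those without the block, and with it the SE was smaller for each of the 9 genes except dia. For the 9 genes the spread between libraries was larger than counting error.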
